A study of Homo sapiens with 8 samples.

Results

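The Forkhead box (FOX) genes encode transcription factors that share a winged-helix DNA-binding domain. They were taken as every protein-coding gene of chromosomes 1 to 22 in the RefSeq GRCh38.p14 gene table whose symbol is FOX, a letter from A to S, digits and an optional L with a digit. This rule gave 47 genes of 19126. The rule names 6 of them as expressed members, FOXM1, FOXK1, FOXK2, FOXO1, FOXO3 and FOXO6, and the other 41 were grouped as lineage members. Expression was not measured, so these names are labels and not results.

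ATAC-seq, in which the Tn5 transposase cuts and tags open DNA, had been run on 8 libraries of hTERT RPE-1 cells, an immortalised human retinal pigment epithelial line. All libraries carried the genotype Plk1-/- EGFP-Plk1as, in which the mitotic kinase Plk1 is replaced by a tagged, analog-sensitive form that bulky compounds such as 3MB-PP1 inhibit. All cells were exposed to 5 µM STLC, an inhibitor of the spindle motor Eg5 that holds cells in prometaphase, for 16 h, collected by shaking off and then kept in STLC for 2 h with 0.5% DMSO (4 libraries) or 10 µM 3MB-PP1 (4 libraries). Each reaction held 50000 cells with a mitotic index above 95%, no untreated or interphase group was used here, and the labels do not say whether the line is 1 clone.

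Forkhead factors divide into those made in most cells and those that mark an embryonic lineage. FOXM1 drives transcription of genes for G2 and mitosis and is itself a substrate of Plk1, FOXO factors are held in the cytoplasm by AKT phosphorylation and act on genes of arrest, stress resistance and apoptosis, and FOXK factors are repressors of the starvation and autophagy response. FOXA proteins open closed chromatin in endoderm, and some Forkhead factors stay bound to mitotic chromosomes.

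The lists held 149172 to 197782 autosomal peaks in the DMSO group and 169667 to 250548 in the 3MB-PP1 group, and they covered 88.0 to 114.47 Mb and 76.43 to 99.17 Mb. A gene counts as called in a list when at least 1 peak overlaps its window, which is the gene with 1 kb either side. Of the 8 pigment epithelium markers examined, 5 were called in all 8 lists and 3 (RPE65, BEST1 and TYRP1) were not, while KRT8 and KRT18, markers of an epithelial line, were called in all 8. PTPRC and ALB, markers of blood and liver, were called in 7 and 3 lists, and CD3E and GFAP, markers of T cells and astrocytes, in all 8. Over all protein-coding genes, 79.7% were called in all 8 lists. Calls at these markers did not separate cell types.

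The sequences just before the starts of Forkhead genes show the range of promoters in the family. Each line gives the 250 bases before the 5′-most start in the RefSeq GRCh38.p14 promoter table, 5′ to 3′ on the gene's strand, with CpG dinucleotides in capitals. FOXO3 and FOXK2 are shown as expressed members called at the start in all 8 lists. FOXD3 and FOXE1 are the members whose start was called in all 4 3MB-PP1 lists and in no DMSO list. How many of all genes have such a start is not given here. FOXR1, a member of the germ line and early embryo group, has a start called in 4 lists, and FOXD4 and FOXD4L6 are near-identical copies with few calls.
FOXO3 (chr6:108559575-108559824, plus strand): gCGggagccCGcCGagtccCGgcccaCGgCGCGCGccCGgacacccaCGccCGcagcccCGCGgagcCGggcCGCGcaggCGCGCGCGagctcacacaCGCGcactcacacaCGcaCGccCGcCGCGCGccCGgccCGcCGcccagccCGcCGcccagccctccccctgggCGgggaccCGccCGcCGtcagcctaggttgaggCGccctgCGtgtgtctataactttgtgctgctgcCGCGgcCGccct
FOXK2 (chr17:82519482-82519731, plus strand): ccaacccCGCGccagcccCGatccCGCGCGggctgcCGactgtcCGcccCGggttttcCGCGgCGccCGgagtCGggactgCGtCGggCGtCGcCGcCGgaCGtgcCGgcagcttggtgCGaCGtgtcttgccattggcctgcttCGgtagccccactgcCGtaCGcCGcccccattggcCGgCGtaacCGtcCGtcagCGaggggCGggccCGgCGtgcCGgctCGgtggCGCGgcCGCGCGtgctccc
FOXD3 (chr1:63322317-63322566, plus strand): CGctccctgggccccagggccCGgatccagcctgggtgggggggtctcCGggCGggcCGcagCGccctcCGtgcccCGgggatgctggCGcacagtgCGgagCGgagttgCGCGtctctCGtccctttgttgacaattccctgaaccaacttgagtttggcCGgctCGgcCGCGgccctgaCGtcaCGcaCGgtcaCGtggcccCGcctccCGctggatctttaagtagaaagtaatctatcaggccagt
FOXE1 (chr9:97852976-97853225, plus strand): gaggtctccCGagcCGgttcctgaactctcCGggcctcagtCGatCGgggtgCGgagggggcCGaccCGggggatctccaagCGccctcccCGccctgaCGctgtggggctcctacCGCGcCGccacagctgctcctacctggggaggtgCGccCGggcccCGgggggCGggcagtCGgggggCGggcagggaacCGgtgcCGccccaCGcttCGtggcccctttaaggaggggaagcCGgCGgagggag
FOXR1 (chr11:118971511-118971760, plus strand): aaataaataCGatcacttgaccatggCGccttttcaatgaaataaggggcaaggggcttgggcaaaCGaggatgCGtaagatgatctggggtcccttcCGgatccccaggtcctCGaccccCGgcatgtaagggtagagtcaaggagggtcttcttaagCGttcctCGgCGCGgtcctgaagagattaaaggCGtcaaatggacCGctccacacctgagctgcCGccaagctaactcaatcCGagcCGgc
FOXD4 (chr9:118418-118667, minus strand): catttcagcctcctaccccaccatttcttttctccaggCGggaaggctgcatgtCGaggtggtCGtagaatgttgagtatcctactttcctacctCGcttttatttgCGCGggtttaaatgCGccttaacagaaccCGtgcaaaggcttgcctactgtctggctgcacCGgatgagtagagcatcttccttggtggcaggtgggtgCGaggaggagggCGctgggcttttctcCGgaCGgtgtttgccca
FOXD4L6 (chr9:41128682-41128931, minus strand): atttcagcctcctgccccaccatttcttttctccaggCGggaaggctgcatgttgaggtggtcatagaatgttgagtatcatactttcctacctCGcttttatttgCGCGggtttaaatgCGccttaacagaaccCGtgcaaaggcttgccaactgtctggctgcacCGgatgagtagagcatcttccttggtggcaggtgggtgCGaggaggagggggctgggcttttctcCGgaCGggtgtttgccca
These stretches hold 42 CpG in FOXO3, 43 in FOXK2, 24 in FOXD3, 26 in FOXE1, 16 in FOXR1, 13 in FOXD4 and 10 in FOXD4L6.

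Calls differed between the roles of the members, which also differ in length. In all 8 lists, 28 of 47 members (59.6%) had a peak, against 79.7% of all 19126 genes. Another 16 members were called in 1 to 7 lists. No list held a peak for 3 members (FOXD4L1, FOXD4L5 and FOXD4L6), against 3.72% of all genes with no peak. Members are short, with a median length of 4493 bp against 24476.5 bp over all genes. Among genes with a window of at most 9 kb, 11 of 30 members (36.7%) were called in all 8 lists, against 46.3% of the 3966 genes of that size. All 17 members with longer windows were called in all 8 lists, against 88.4% of the longer genes. The 17 are the 12 expressed and other widely transcribed members with FOXA3, FOXN1, FOXN4, FOXP2 and FOXR1, so role and window length cannot be told apart in these calls.

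By role, all 6 expressed members and all 6 other widely transcribed members (FOXJ2, FOXJ3, FOXN2, FOXN3, FOXP1 and FOXP4) were called in every list. Of the 9 members of mesenchyme and mesoderm, 7 were, the exceptions being FOXL1 and FOXS1. Of the 9 members of endoderm and epithelium, 5 were, and of the 7 members of the nervous system, eye and neural crest, 3 were. Of the 3 members of gonad, germ line and early embryo only FOXR1 was called in every list, and none of the 6 FOXD4 copies was. FOXL3, which was placed in no role, was called in 2 lists. The map of pileup percentiles shows these blocks.

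**Figure D1:**
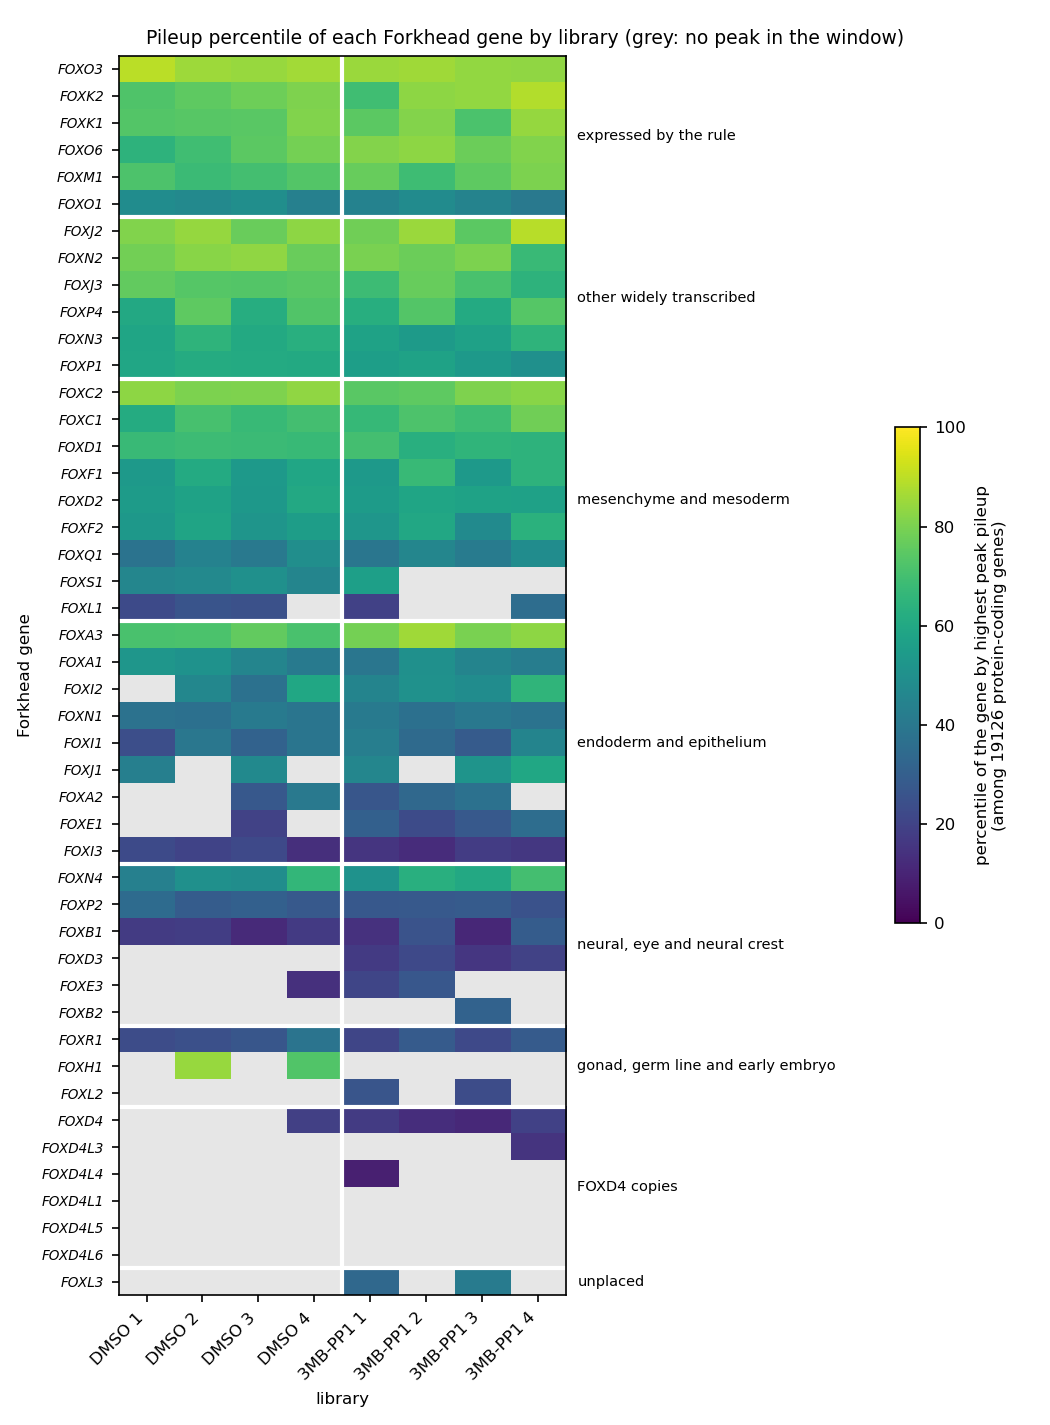
Pileup percentile of 46 Forkhead genes (rows, grouped by role and ordered by mean) in the 8 libraries (columns). Colour gives the percentile of the gene among 19126 protein-coding genes by its highest peak pileup, and grey marks no peak in the window. The expressed and widely transcribed members are filled in every library, and the FOXD4 copies are nearly all grey.

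Pileup was compared as the percentile of each gene among all protein-coding genes of its list, ordered by the highest fragment pileup of any peak in the window. The highest peak of a gene means the one with the highest pileup value. Whether that value is the maximum or the mean of a peak is not given, so the percentile may depend on peak width. The median percentile of the 6 expressed members lay between 71.79 and 79.83 in the DMSO libraries and between 75.68 and 82.33 in the 3MB-PP1 libraries. For the 41 lineage members it lay between 24.01 and 39.0 in DMSO and between 28.54 and 39.22 in 3MB-PP1. The gap between both medians was 48.21, 34.69, 43.46 and 40.83 percentile points in DMSO replicates 1 to 4, and 36.46, 53.79, 39.06 and 46.44 in 3MB-PP1 replicates 1 to 4. Expressed members stood higher than the lineage median in every library, and the gaps of the treatments overlapped. The 6 other widely transcribed members, counted here with the lineage genes, had medians of 67.72 to 74.33 in DMSO and 65.64 to 74.95 in 3MB-PP1, and in DMSO replicate 2 theirs was above that of the expressed members (74.33 against 71.79). Within 1 kb of the annotated start, a window of the same size for every gene, the mean gap was 45.6 points over the 5 expressed and 31 lineage members in the promoter table, against 42.3 points for the whole windows of the same members. At the start, the lineage median was 13.8, 30.16, 27.76 and 32.03 in DMSO and 42.59, 34.92, 42.25 and 36.62 in 3MB-PP1, without overlap. The expressed median there was 74.04, 75.95, 76.6 and 80.67 in DMSO and 76.33, 83.02, 76.13 and 82.56 in 3MB-PP1, with overlap. The mean gap pools the 8 libraries, and the shift of the lineage median was not tested.

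FOXO3, a FOXO factor of stress resistance and longevity, had the highest mean percentile of the family. Its percentile was 89.63, 85.46, 84.6 and 85.96 in DMSO and 85.04, 85.74, 83.86 and 83.52 in 3MB-PP1, so that the groups overlapped. FOXJ2, a widely transcribed member, followed, at 81.08, 84.0, 77.08 and 82.96 in DMSO and 78.46, 84.87, 74.75 and 89.27 in 3MB-PP1. FOXC2, which acts in the mesenchyme of vessels and lymphatics, came after it at 82.88, 80.24, 80.56 and 83.33 in DMSO and 74.23, 75.02, 80.6 and 82.16 in 3MB-PP1. FOXO3 was above FOXC2 in every library and their ranges did not overlap, while the range of FOXJ2 overlapped both. At the other end, the 3 members with no peak shared the lowest rank, and FOXD4L4 and FOXD4L3 were each called in a single 3MB-PP1 list.

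Among the expressed members, FOXM1 had a peak in every list at the higher-coordinate end of the gene (chr12:2857680-2877174). Its window also holds ITFG2, RHNO1 and TEX52, so a peak there cannot be assigned to FOXM1 alone. Peaks covered 1787, 1847, 1538 and 2830 bp of the window in DMSO and 1425, 2165, 2067 and 2375 bp in 3MB-PP1. The percentile of FOXM1 was 71.92, 68.09, 70.15 and 73.2 in DMSO and 76.62, 68.92, 75.36 and 80.27 in 3MB-PP1. Both measures overlapped between the groups. The log2 difference in covered length was 0.18 (SE 0.26, limma with Benjamini-Hochberg adjustment, adjusted p = 0.852).

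FOXK1, a repressor of autophagy genes, had its highest peak across its start in all 8 lists, with a width of 2757, 2248, 2290 and 2234 bp in DMSO and 2576, 2225, 2245 and 2046 bp in 3MB-PP1. Covered length over the FOXK1 window was 6160, 6223, 6583 and 7696 bp in DMSO and 6013, 6728, 6646 and 4703 bp in 3MB-PP1. The groups overlapped in both measures. FOXK2, its paralog, was covered over 7573, 5607, 7227 and 4883 bp in DMSO and 6031, 5019, 4518 and 4375 bp in 3MB-PP1, also with overlap. The highest peak of FOXK2 was the one at its start in DMSO replicates 1 to 3 and 3MB-PP1 replicate 1, with 1650 to 2007 bp. In the other 4 libraries it was a peak of 215 to 295 bp inside the gene, near chr17:82586215-82586444.

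FOXO1, which governs the response to insulin, stood lowest of the expressed members. Its percentile was 48.45, 47.01, 49.55 and 43.36 in DMSO and 44.31, 48.13, 44.64 and 40.55 in 3MB-PP1, below every value of every other expressed member. Covered length of FOXO1 was 4925, 5813, 6962 and 7013 bp in DMSO and 4675, 5817, 8977 and 4320 bp in 3MB-PP1. For FOXO3 it was 11570, 10283, 11095 and 6647 bp in DMSO and 7771, 6849, 9902 and 7438 bp in 3MB-PP1. In both genes the groups overlapped.

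FOXO6, a FOXO factor best known in the brain, had the lowest log2 difference of the expressed members. Peaks covered 2463, 1739, 1576 and 1862 bp in DMSO and 1123, 778, 1649 and 524 bp in 3MB-PP1, and only 3MB-PP1 replicate 3 lay within the DMSO range. The log2 difference was -0.78 (SE 0.30, limma, adjusted p = 0.403). Its percentile was 64.6, 69.46, 74.89 and 78.96 in DMSO and 81.36, 83.17, 77.59 and 80.87 in 3MB-PP1, a difference of 8.77 points (limma, adjusted p = 0.228). With the window cut to the gene alone, the rank difference of FOXO6 was -4.40 points. No expressed member passed either test.

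Measured per length, the most covered members were not the expressed ones, whose windows are longer. The windows of the 7 members named next span 4.51 to 8.03 kb, and those of the expressed members 21.5 to 126.95 kb. Covered share and window length therefore cannot be told apart. Within 1 kb of the annotated start, mean covered length was 1000.6 to 1735.5 bp in the expressed members with a tabulated start. For those of the 7 with such a start it was 1054.0 to 1887.2 bp. Peaks covered on average 45.2% of the window of FOXD1, 41.8% of FOXC2, 37.6% of FOXC1, 31.3% of FOXQ1, 28.5% of FOXD2, 24.1% of FOXF1 and 24.0% of FOXF2. All 7 were placed in the mesenchyme and mesoderm role. FOXA1 of endoderm and epithelium followed closely at 22.8%, and FOXB1 of the nervous system group at 21.2%. The remaining mesenchyme and mesoderm members, FOXS1 and FOXL1, had 3.71% and 3.24%. FOXD1, which marks kidney stroma, was covered over 2142, 1945, 2142 and 1831 bp in DMSO and 1854, 1923, 2243 and 2227 bp in 3MB-PP1, in 1 peak per library. FOXC1, a regulator of eye and skull development, was covered over 2271, 2083, 2170 and 2632 bp in DMSO and 2894, 1773, 1934 and 2248 bp in 3MB-PP1. The groups overlapped for both genes. The median over the 47 members was 6.22% against 5.49% over all genes, and for windows of at most 9 kb it was 5.21% against 10.0%.

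**Figure D2:**
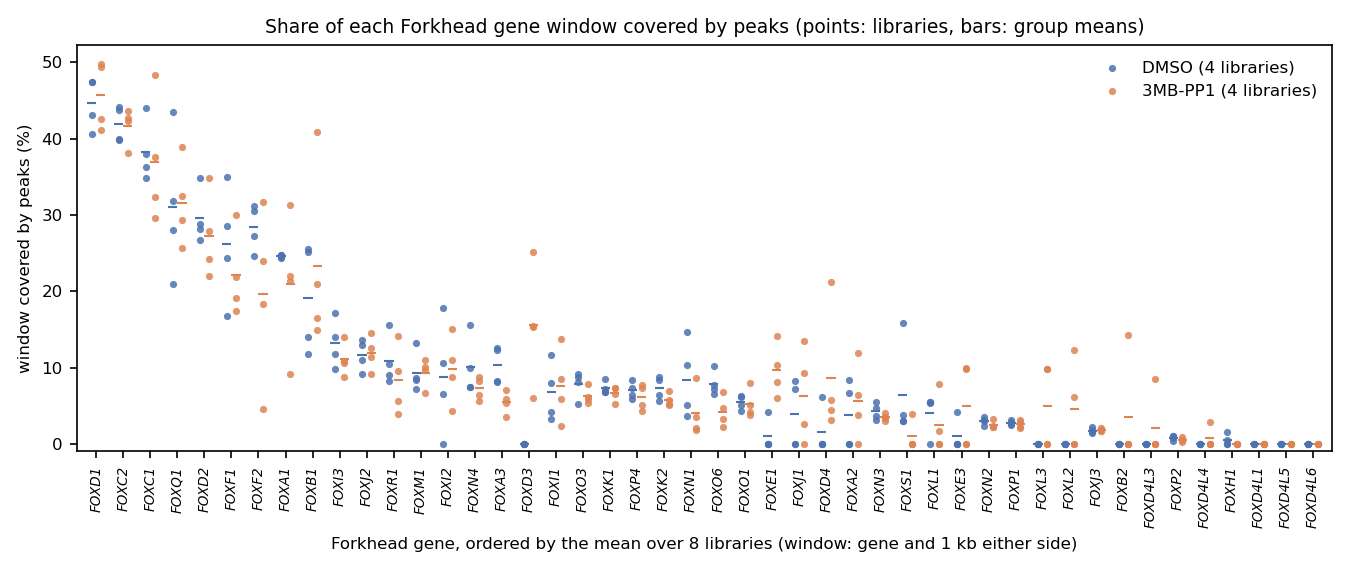
Percent of the window (gene and 1 kb either side) of 46 Forkhead genes covered by peaks, ordered by the mean over 8 libraries. Points are libraries, short bars are group means, and the y axis is linear. The genes at the left, from FOXD1 with a mean of 45.2%, have short windows, and the last 3 genes have no peak.

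Members within 500 kb of each other on a chromosome often differed in level. On chromosome 16, FOXF1, FOXC2 and FOXL1 follow each other with gaps of 51.4 and 8.8 kb, and their mean percentiles were 58.4, 79.9 and 17.8. FOXL1, a gene of gut mesenchyme, was called in 5 lists and the other two in all 8. On chromosome 1, FOXE3, a lens gene, lies 20.0 kb from FOXD2. FOXE3 had a mean percentile of 11.1 with calls in 3 lists, and FOXD2 one of 56.9 with calls in all 8. On chromosome 6, FOXQ1, FOXF2 and FOXC1 follow each other with gaps of 74.8 and 214.3 kb, and their percentiles of 43.5, 55.5 and 69.5 all came with calls in every list. On chromosome 9, FOXD4L5 and FOXD4L4 lie 451.9 kb apart and had percentiles of 5.1 and 5.7, with calls in 0 lists and 1 list.

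At the annotated starts, the number of lists with a call went with CpG content. The promoter table held 36 of the 47 members. Members not matched include FOXA2, FOXC2, FOXE3, FOXF1, FOXH1, FOXJ1, FOXL1, FOXM1, FOXN2 and FOXS1. A peak lay within 1 kb of the start in all 8 lists for 17 of 36 members (47.2%), against 61.2% of the 15101 protein-coding genes matched. All 5 matched expressed members and all 5 matched widely transcribed members were among the 17. Before the starts called in 8 lists, members had a median of 29 CpG in 250 bases, against 22 over all such genes. For starts called in 1 to 7 lists the medians were 15 and 7. For starts called in no list they were 2 and 3, the members being FOXD4L1, FOXD4L5 and FOXD4L6.

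FOXL3 and FOXL2 had 31 and 25 CpG with calls at the start in 2 lists and 1 list, and FOXJ3, a widely transcribed member, had 8 CpG with calls in all 8. CpG number therefore did not fix the call. The FOXD3 and FOXE1 sequences above, with 24 and 26 CpG, lie in the range of the member starts called in 8 lists (8 to 44). They also lie in the range of those called in 1 to 7 lists (0 to 31), so the ranges do not place them. Neither had a call at its start in DMSO. The forkhead core motif (GTAAACA, both strands) was in 0 of the 36 upstream sequences and in 2.3% of all 15101. The GC box (GGGCGG, both strands) was in 72.2% against 56.1%, and CCAAT (both strands) in 27.8% against 34.2%. The CHR core (TTTGAA, both strands), an element of cell cycle promoters, was in 16.7% against 10.8%. No motif searched contains another, and a match describes letters and not a bound site.

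**Figure D3:**
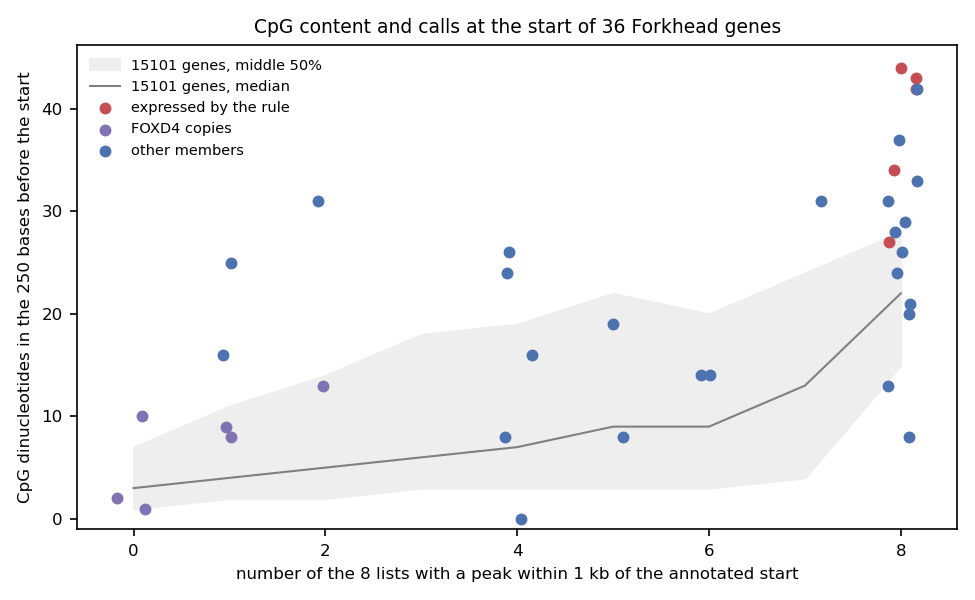
CpG dinucleotides in the 250 bases before the annotated start (y axis) against the number of the 8 lists with a peak within 1 kb of that start (x axis, points spread sideways), for 36 Forkhead genes. The grey line and band give the median and middle 50% of the 15101 genes matched. The 5 expressed members lie at 8 lists with 27 to 44 CpG, and the FOXD4 copies lie at 0 to 2 lists.

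The FOXD4 copies are recent duplicates of a single-exon gene, and reads from near-identical copies may be split between them or dropped, so their calls are uncertain. The sequences of FOXD4 and FOXD4L6 shown above were identical at 243 aligned bases, with 6 mismatches and 2 gap bases. FOXD4L3 and FOXD4L4 were identical at 165 aligned bases with 0 mismatches, shifted against each other, with 170 gap bases. Over the whole alignment, gaps included, identity was 96.8% for FOXD4 with FOXD4L6 and 49.3% for FOXD4L3 with FOXD4L4. All other pairs of copies had 44.9% to 51.0%, and FOXF2 with FOXC1, outside this group, had 49.5%. Each piece is placed by the annotated start of its copy, so low identity cannot tell a shifted start from a diverged sequence. These values therefore do not show whether the copies are near-identical. How the reads of such copies were assigned is not given in the sources used here. FOXD4 itself was covered over 0, 0, 0 and 255 bp in DMSO and 186, 130, 890 and 242 bp in 3MB-PP1, and the groups overlapped.

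Between treatments, no member passed the test in either measure. Covered length was compared as log2 of the covered base pairs of the window, scaled to the library's total covered length, plus 100 bp, and each difference is 3MB-PP1 minus DMSO. Of the 44 members with a peak in at least 1 list, 0 were lower and 0 were higher by limma at an adjusted p of 0.05. Over all 18414 genes tested the shares called were 0% lower and 0% higher. At an unadjusted p under 0.05 there were 5 members and 1964 genes (10.7%). For pileup rank, 0 members were lower and 0 higher by limma, against 0.038% of the genes tested called lower and 0.0978% called higher, 25 genes in all. At an unadjusted p under 0.05 there were 6 members and 2653 genes (14.4%). With the replicate number as a block, the count of 25 genes fell to 0, and within the odd- and even-numbered libraries alone it was 21 and 0. No member was called in those 3 fits. The median log2 difference in covered length was 0.09 over the 44 members and 0.03 over all genes, and it was -0.13 over all genes without scaling. Of the 8 pigment epithelium markers, 7 had a negative difference (median -0.55) and 0 were called, with 2 of 8 (TYRP1 and OTX2) lower without overlap, against 2.27% of all genes. The 4 markers of other tissues were all negative, with a median of -0.58, 0 called and 1 of 4 (CD3E) lower without overlap. The part of these shifts in the Forkhead differences was not tested.

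**Figure D4:**
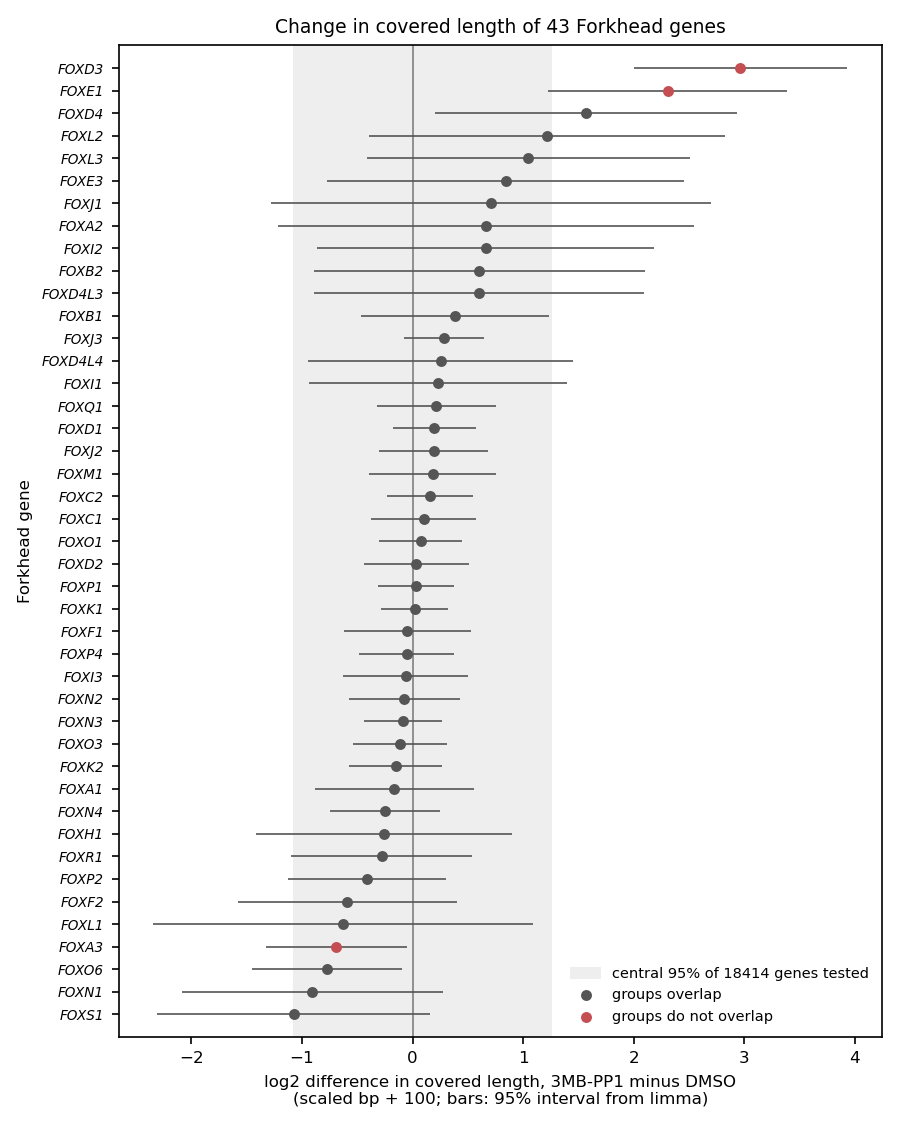
Log2 difference in covered length (3MB-PP1 minus DMSO, x axis) of 43 Forkhead genes tested (y axis), with 95% intervals from limma. The grey band spans the central 95% of the 18414 genes tested, from -1.08 to 1.25. FOXD3, FOXE1 and FOXD4 lie to the right of the band, and the red points mark the genes whose groups do not overlap.

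The covered length of the groups did not overlap for 3 members. In 1 member, FOXA3, 3MB-PP1 was lower, against 2.27% of the genes tested. In 2 members, FOXD3 and FOXE1, it was higher, against 3.06%. By pileup rank, 1 member (FOXP1) was lower without overlap, against 5.53% of genes, and 3 members (FOXA3, FOXD3 and FOXE1) were higher, against 3.38%. With 44 members tested, counts this small are near the shares over all genes.

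FOXD3, which maintains neural crest and pluripotent cells, was the member with a peak in every 3MB-PP1 list and in no DMSO list. This was 1 of 47 members, against 0.0784% of all genes. In the opposite direction there were 0 members, against 0.0157%. Peaks covered 0, 0, 0 and 0 bp of the FOXD3 window (gene at chr1:63322567-63325128) in DMSO and 701, 706, 1148 and 275 bp in 3MB-PP1. The nearest DMSO peaks lay 4406, 4553, 3336 and 4587 bp from the gene. The log2 difference was 2.97 (SE 0.43, limma, adjusted p = 0.155), with 3.33 among libraries of odd number and 2.60 among those of even number. With 0 bp in every DMSO library, its size depends on the 100 bp added before the log. Across the alternatives it was 1.26 to 3.33 (limma, adjusted p = 0.0419 to 0.5625). The 4 peaks were weak, with a fold enrichment of 2.38 to 2.71 over background and a -log10 q of 1.08 to 1.55. No FOXD3 peak had a -log10 q of at least 2. The antisense gene FOXD3-AS1 lies in the same window, and peaks carry no strand.

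FOXE1, a thyroid and palate factor, was covered over 0, 0, 228 and 0 bp in DMSO and 328, 442, 776 and 569 bp in 3MB-PP1. All 4 3MB-PP1 libraries were above DMSO replicate 3, the only DMSO library with a peak. These peaks were weak too, with a fold enrichment of 2.32 to 2.77 and a -log10 q of 1.14 to 2.13 in 3MB-PP1. The DMSO peak had 2.46 and 1.69. The log2 difference was 2.31 (SE 0.49, limma, adjusted p = 0.176), with 1.87 among libraries of odd number and 2.75 among those of even number. Across the alternatives the difference for FOXE1 was 0.83 to 2.75 (limma, adjusted p = 0.1164 to 0.7161). The percentile of FOXE1 was 5.8, 6.04, 19.8 and 4.84 in DMSO and 30.77, 22.7, 27.91 and 35.75 in 3MB-PP1, a difference of 20.16 points (limma, adjusted p = 0.0841). Within 1 kb of its start, FOXE1 was called in 0 DMSO and 4 3MB-PP1 lists. The non-coding gene PTCSC2 lies in the same window.

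**Figure D5:**
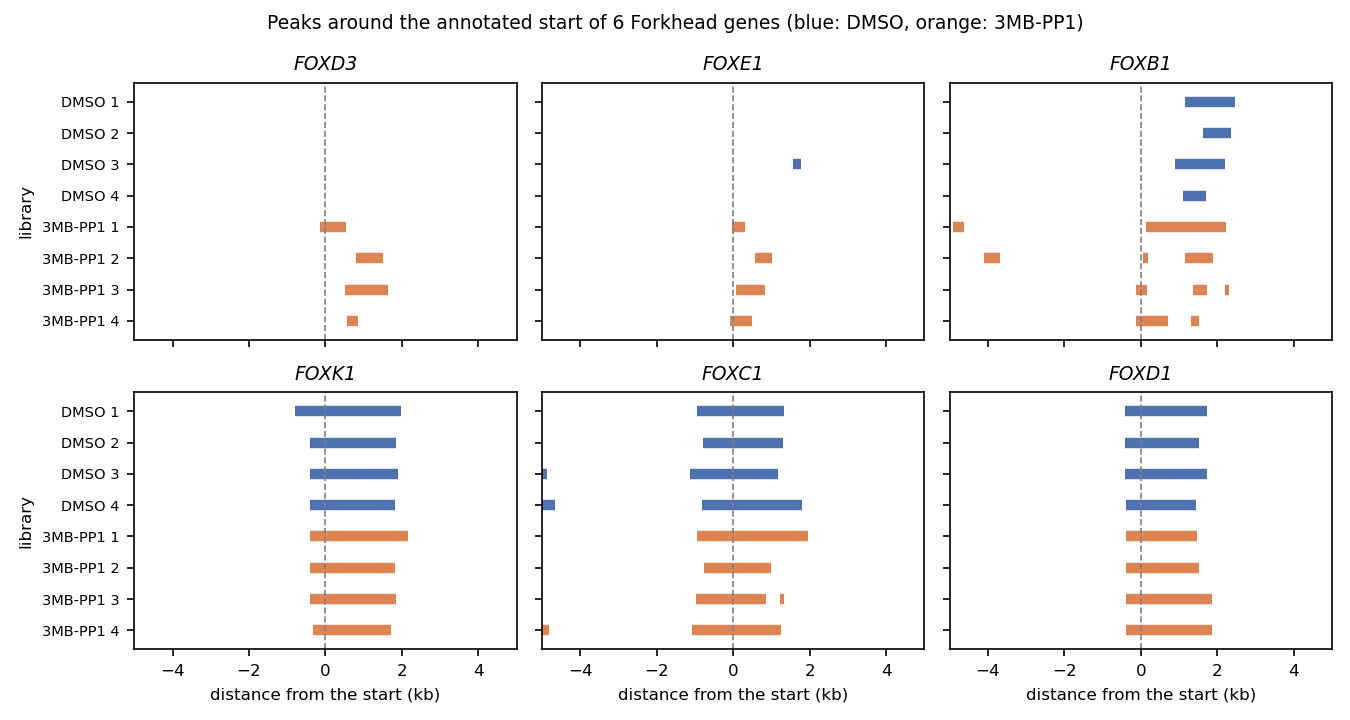
Peaks within 5 kb of the annotated start of 6 Forkhead genes (x axis, distance from the start along the gene's strand in kb), 1 row per library, blue for DMSO and orange for 3MB-PP1. FOXD3 has bars in the 4 3MB-PP1 rows alone, FOXE1 has 1 DMSO bar away from the start, and FOXK1, FOXC1 and FOXD1 have a wide bar across the start in all 8 rows.

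FOXA3, a liver and endoderm factor, went in opposite directions by length and by rank. Peaks covered 940, 1448, 934 and 1417 bp in DMSO and 670, 618, 802 and 396 bp in 3MB-PP1, and the log2 difference was -0.69 (SE 0.29, limma, adjusted p = 0.430). The percentile of FOXA3 was 71.43, 71.8, 76.03 and 71.33 in DMSO and 79.05, 85.84, 79.71 and 82.87 in 3MB-PP1, higher by 9.22 points (limma, adjusted p = 0.0890). Its highest peak was 2412, 2615, 1948 and 2036 bp wide in DMSO and 1209, 1019, 1185 and 1244 bp in 3MB-PP1, without overlap. That peak lies mostly or wholly before the gene, and with the gene alone both differences of FOXA3 turned, to 0.19 on the log2 scale and -4.34 points.

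More members were called in more 3MB-PP1 lists than DMSO lists than the reverse, and these were weak peaks of lineage genes. This held for 13 of 47 members (27.7%), against 7.76% of all genes, and the reverse for 3 (6.4%), against 5.69%. All 16 have windows of at most 9 kb. Of the 30 members of that size they make 43.3% and 10.0%, against 19.1% and 14.1% of all genes of that size. The 13 include FOXA2, FOXB2, FOXD3, FOXD4, FOXD4L3, FOXD4L4, FOXE1, FOXE3, FOXI2, FOXJ1, FOXL2 and FOXL3, and the 3 are FOXH1, FOXL1 and FOXS1. In 38 of the 47 calls of these 13 members the highest peak had a -log10 q under 2. With peaks of a -log10 q of at least 2 alone, the counts were 3 members with more 3MB-PP1 lists and 11 with more DMSO lists. With lists of equal length they were 10 and 6. The 3MB-PP1 list is the longer one in 3 of 4 replicate numbers. In the odd-numbered libraries 11 members had more 3MB-PP1 calls, and in the even-numbered ones 5. Shares of all genes with the stricter q, equal lengths or odd and even libraries are not given here. Whether these counts differ from all genes is therefore open.

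FOXB1, a gene of the hindbrain and mammillary bodies, had a peak in all 8 lists inside the gene, while a peak within 1 kb of its start was called in 1 DMSO list and 4 3MB-PP1 lists. FOXP2, a gene of speech and motor circuits, went the opposite way at its 5′-most tabulated start (chr7:114414815), with calls in 4 DMSO lists and 0 3MB-PP1 lists. That start lies inside the FOXP2 gene and has 0 CpG in the 250 bases before it. The share of all genes with 4 calls against 0 at the start is not given here. Over the whole FOXP2 window peaks covered 6250, 4400, 6166 and 2538 bp in DMSO and 2881, 3129, 5373 and 1696 bp in 3MB-PP1, with overlap and a log2 difference of -0.41 (SE 0.32, limma, adjusted p = 0.704). FOXN1, the thymus epithelium factor, was covered over 1768, 3555, 5076 and 1253 bp in DMSO and 2979, 730, 630 and 1209 bp in 3MB-PP1, again with overlap.

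FOXS1 and FOXH1 show what a window can add. FOXS1, a gene of pericytes, was covered over 126, 100, 524 and 100 bp in DMSO and 129, 0, 0 and 0 bp in 3MB-PP1. The peaks lie beside the gene, where DUSP15 is in the window. Its rank difference was -29.21 points (limma, adjusted p = 0.259), it was -42.05 without 3MB-PP1 replicate 1 (limma, adjusted p = 0.00266), and it was 3.18 with 5 kb either side. FOXH1, a partner of SMADs in the early embryo, was covered over 0, 23, 0 and 69 bp in DMSO and nowhere in 3MB-PP1, by the edge of peaks past the higher-coordinate end of the gene. KIFC2, also in the FOXH1 window, lies at the other end.

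Peaks in Forkhead windows were narrower with 3MB-PP1, as they were over all genes. The median width of these peaks was 474, 513, 451.5 and 313 bp in DMSO and 319, 319.5, 278 and 308 bp in 3MB-PP1, with DMSO replicate 4 inside the 3MB-PP1 range. The means were 437.9 ± 87.0 bp and 306.1 ± 19.5 bp (SD, n = 4 each). In the windows of the 6 expressed members the medians were 494.5, 513, 481 and 474.5 bp in DMSO and 310, 351, 245.5 and 379.5 bp in 3MB-PP1, without overlap. Over all gene windows they were 455, 421, 437 and 370 bp and 285, 308, 286 and 339 bp, also without overlap. The number of peaks in Forkhead windows was 137, 132, 168 and 209 in DMSO and 207, 180, 261 and 165 in 3MB-PP1, and the groups overlapped.

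Genes that work with the expressed members showed no call either. Of 24 FOXM1 targets and partners in the cell cycle, 23 were called in all 8 lists, the exception being LIN37, and limma called 0 lower and 0 higher in either measure. Over all genes, 79.7% were called in all 8 lists. Of 20 FOXO targets, 17 were called in all 8 lists, near this share, and 0 passed in either direction. The others were G6PC1 and PCK1, enzymes of glucose production, and FASLG, a death ligand. BCL2L11, which encodes the apoptosis factor BIM, had a log2 difference of 0.32 (SE 0.14, limma, adjusted p = 0.462), and SESN1, a stress sensor, one of 0.36 (SE 0.14, limma, adjusted p = 0.411). In both the 3MB-PP1 libraries were higher without overlap, 2 of the 20 FOXO targets, against 3.06% of all genes. No FOXM1 target or partner was apart in either direction, nor was any gene that controls FOXO. The 15 genes for kinases and binding proteins that control FOXO were all called in 8 lists with 0 passing the test. The median log2 differences of these 3 lists were 0.07, 0.08 and 0.04, against 0.03 over all genes.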

How the data were processed

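ATAC-seq peak lists of 8 libraries, 4 per group, were analysed, with groups and replicate numbers taken from the labels. The authors' peak lists were deposited per library, so peaks were not called on pooled samples. The submitters' processing notes name MACS2, DESeq2 and the build hg38. The aligner, filters, read shifting and control are not given in the sources used here, and each could change peak number and width. From the values, the deposited columns are peak length, pileup (a coverage signal of fragments with no stated scaling), -log10 p, fold enrichment (a ratio to background within the library) and -log10 q, which was at least 1. No summit position is among these columns, so whether pileup is the maximum or the mean of a peak is not given. These per-peak values are the authors' own and served to rank, filter or describe peaks inside 1 list. Read depth is unknown, so no counting interval was computed.

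Windows were the genes of the RefSeq GRCh38.p14 table with 1 kb either side. Covered length and percentile of highest pileup were computed per gene and library in Python 3.11.15 and compared with limma 3.58.1 in R 4.3.3 (two-sided, trend, Benjamini-Hochberg over 18414 genes with a peak), after tests on simulated data. The 4 replicates per group are called biological in the labels. Same-numbered libraries deviated together, with correlations over genes of 0.193, 0.107, 0.133 and 0.155 for covered length and 0.324, 0.113, 0.179 and 0.267 for rank. A fit with the replicate block was therefore added as an alternative. The main fits used no block and treat the libraries as unpaired, since the labels do not say what a shared number means. Some libraries of another number but the same parity correlated more: 0.205 for DMSO 3 with 3MB-PP1 1 in rank, and 0.113 for DMSO 2 with 3MB-PP1 4 in covered length. Libraries of different parity did not correlate above 0 in either measure. Deviations were taken from each group's own mean, so values above 0 for some pairs force values below 0 for others. The lack of correlation across parity is thus no separate evidence of a split, and what separates odd from even numbers is not given. Alternatives were other scaling, pseudocounts, filters, windows and list lengths, and leaving out each library.

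Members, roles and gene lists were chosen with earlier results of these data known. Described in full are FOXM1, FOXK1, FOXK2, FOXO1, FOXO3, FOXO6, members past the test, members without overlap in covered length, members with 4 calls against 0, and the 3 highest and 3 lowest in mean percentile. FOXB1, FOXC1, FOXD1, FOXD4, FOXH1, FOXN1, FOXP2 and FOXS1 were added after their values were seen. The values of 1 member are not reported here, and it is left out of the figures.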

Additional observations from a re-analysis of the deposited data

Results flagged for a closer look

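In groups of 4 libraries, the gap of the library farthest from the others was compared with the range of its group. This was done for 52 groups of covered lengths or percentiles (Dixon's test at the 95% level). Other groups given above were not tested, among them the covered lengths of FOXD4 and the peak widths of FOXK1. In 6 of the 52 a single library stood apart. For normal and independent values the level flags about 1 in 20, or 2.6 of 52. A covered length above 0 in 1 library alone is flagged whatever its size, as for FOXE1 in DMSO and FOXS1 in 3MB-PP1. Length and percentile there flag the same call, so the 6 cannot be set against the 2.6. FOXA3 had a percentile of 76.03 in DMSO replicate 3, against 71.33 to 71.8 in the remaining DMSO libraries. FOXE1 was covered over 228 bp in DMSO replicate 3 and over 0 bp in the other DMSO libraries, and its percentile was 19.8 there against 4.84 to 6.04. FOXS1 was covered over 524 bp in DMSO replicate 3 against 100 to 126 bp in the others. In 3MB-PP1 replicate 1 it was covered over 129 bp and had a percentile of 56.44, against 0 bp and 3.85 to 6.17 in the others.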

How the results depend on the processing

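Results are counts of genes or differences in value, and 288 of 327 values under an alternative kept their direction and their side of the threshold or lay within 1.5 times (counts) or 1 SD (differences) of the value reported. For covered length, 0 genes were called by limma, against 7 with all genes and no filter, of which 1 was a Forkhead gene (FOXD3, adjusted p = 0.0419), and 0 to 27 when 1 library was left out (27 without DMSO replicate 4, with 0 Forkhead genes). For pileup rank the 25 genes became 0 with the replicate block, 0 in the even-numbered libraries, 13 by highest fold enrichment, and 4 to 71 when 1 library was left out (4 without DMSO replicate 2, 8 without 3MB-PP1 replicate 2, 10 without DMSO replicate 1 and 71 without DMSO replicate 4). Forkhead genes called by rank were 0 to 1 in those fits, the call being FOXS1 without 3MB-PP1 replicate 1. The replicate block changed no other call.

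With peaks of a -log10 q of at least 2, 18 Forkhead genes were called in all 8 lists, 0 were lower and 1 was higher without overlap, 0 had 4 calls against 0, 3 had more 3MB-PP1 and 11 more DMSO lists, and the width difference was -354.8 bp. With lists of equal length, 0 were lower without overlap, 0 had 4 calls against 0 and 6 had more DMSO lists. Within 1 kb of the annotated start, 17 of the 36 matched members were called in all 8 lists. With 1 library left out, 1 to 2 members were lower and 2 to 4 higher without overlap (4 without DMSO replicate 4; 2 lower without DMSO replicate 3, 3MB-PP1 replicate 1 or 3MB-PP1 replicate 3), and the width difference was -173.4 to -106.7 bp. Members with more 3MB-PP1 lists were 8 with 5 kb either side and 5 in the even-numbered libraries, and those with more DMSO lists were 1 in the gene alone and 0 with 5 kb. Shares of all genes under these alternatives are not given here, so the member counts are not set against them. The gap between expressed and lineage members was 34.1 points by fold enrichment and 34.7 without the FOXD4 copies. With the gene alone the differences were 0.19 (log2) and -4.34 points for FOXA3 and -4.40 points for FOXO6. They were 3.18 points for FOXS1 with 5 kb either side and -4.03 points for FOXM1 by fold enrichment. Alternatives on odd and even libraries, on the window at the start and on members with more lists of a group were chosen after seeing the data, and the cause of these changes was not tested.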
